A study of Mus musculus with 4 samples.

Results

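The genes examined, 10 in number, encode the machinery that cuts cytosolic proteins into peptides and loads those peptides onto MHC class I molecules: B2m, Tap1, Tap2, Tapbp, Psmb8, Psmb9, Psmb10, Psme1, Psme2 and Erap1. Their probe sets were taken from the array wherever the platform annotation gave a single symbol among the 10, which found 16 probe sets of 9 genes among 34958 single-symbol probe sets of 18194 genes. The probe set of Psme2 also carries another gene's symbol, so no value is given for it. Of the 16 probe sets, 12 lay above the median of all single-symbol probe sets (a mean log2 signal of 7.27 over the arrays) and 4 lay below it. At the gene level, with probe sets averaged, 8 of the 9 genes passed the corresponding filter of 7.05. Tap1 fell below it, because 2 of its 4 probe sets were dim, and is described by its probe sets.

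The genes were read in AEC2, the surfactant-producing epithelial cells of the lung alveolus, which had been flow sorted from mouse lungs. There were 4 arrays, 1 for each of 4 groups: Tlr4-/- mice at day 4 after bleomycin, untreated Tlr4-/- mice (TLR4-/- in the labels), wild-type (WT) mice at day 4 after bleomycin and untreated WT mice. Tlr4 encodes a receptor of innate immunity, and bleomycin is a drug that injures the lung epithelium. Each array held RNA from cells pooled from 4 to 5 mice, so there is no replicate of any group, and neither the Tlr4 allele, the strain nor the age of the mice is given in the sources used here.

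Values are log2 signals as deposited, and array medians lay between 6.93 and 6.98. Arrays correlated at a Pearson's r of 0.973 to 0.992 over all probe sets, which share the arrays and are not independent. Of 4 Tlr4 probe sets, 1 was far lower in both Tlr4-/- arrays than in the matching WT arrays, at log2 6.39 (day 4) and 7.24 (untreated), against 9.07 and 8.87 in WT. Another 2 were higher in both Tlr4-/- arrays and the last was dim, and without the allele a probe set outside the deleted stretch checks nothing. AEC2 markers were bright on every array: the surfactant gene Sftpc read 14.05 and 14.02 in the Tlr4-/- day 4 and untreated arrays, against 14.06 and 14.03 in WT. Linear signal summed over 11 AEC2 markers at day 4 was 0.936 times its untreated value in Tlr4-/- and 0.989 times in WT, a sum carried by the brightest surfactant genes. Of the 11, 9 had a bleomycin effect below 0, with 0 called by limma and 1 at an unadjusted p under 0.05: Nkx2-1, the lung epithelial transcription factor, read 9.28 and 9.71 in Tlr4-/- and 9.44 and 9.82 in WT.

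Markers of other cells moved with bleomycin. Of 13 leukocyte and macrophage markers past the filter, 12 rose, and their summed linear signal (all 15 on the array) was 11334 and 3538 in the Tlr4-/- day 4 and untreated arrays, against 8830 and 3475 in WT. That is 3.20-fold and 2.54-fold higher at day 4, and Ptprc, the pan-leukocyte CD45 gene, read 7.61 and 7.41 in Tlr4-/- and 7.54 and 6.69 in WT. Macrophages express the class I machinery too, and the part of these cells in the results below was not tested. Signal summed over 12 lymphocyte markers was lower at day 4, at 0.841 times its untreated value in Tlr4-/- and 0.800 times in WT, although of the 2 that passed the filter 1 rose, the T cell adhesion gene Cd2 (0.63, limma adjusted p = 0.0271). Among the rest, all below the filter, some moved unlike in the genotypes: Cd8a differed by -1.82 in Tlr4-/- and -0.11 in WT, Gzma by 0.13 and -1.88. The 3 mesothelial markers rose, as did 1 of 2 fibroblast markers past the filter, with 0 of 1 endothelial and 0 of 3 airway markers. The sex make-up of the pools also moved with treatment: the Y-linked gene Eif2s3y (first of 2 probe sets) read 9.91 and 7.99 in the Tlr4-/- day 4 and untreated arrays and 9.52 and 7.67 in the WT arrays. Its part in the results was not tested. In a bulk pool, fewer cells of a type and less RNA per cell cannot be told apart.

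MHC class I molecules show peptides from inside a cell to cytotoxic T cells. The proteasome cuts proteins into peptides, and in cells exposed to interferon its catalytic subunits Psmb5, Psmb6 and Psmb7 are replaced by Psmb8, Psmb9 and Psmb10, which gives the immunoproteasome; the PA28 regulator, built from Psme1 and Psme2, caps it. The TAP transporter, a heterodimer of Tap1 and Tap2, carries peptides into the endoplasmic reticulum, where the peptidase Erap1 trims them and tapasin, the product of Tapbp, holds the class I heavy chain next to TAP until a peptide binds. B2m is the light chain that every classical class I molecule needs. Most of these genes are textbook targets of interferon gamma, which acts in part through IRF1 and the class I transactivator NLRC5, and alveolar epithelial cells carry class I molecules as other nucleated cells do.

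In the RefSeq gene table, 4 of the genes stand next to each other on chromosome 17, in the order Psmb9, Tap1, Psmb8 and Tap2, between the class II genes H2-DMb1 and H2-Ob. Tapbp is also on chromosome 17, B2m on 2, Erap1 on 13, Psmb10 on 8, and Psme1 and Psme2 lie on 14 with Emc9 between them. The RefSeq promoter table (GRCm38.p6, from 250 bases before to 50 bases from each gene's start) held windows for 9 of the 10 genes, all but Tap2. Both strands were searched for GAAANNGAA, the core of the interferon-stimulated response element, and for TTCNNNGAA, the gamma-activated site. The response element core was found in 3 of the 9 genes (B2m, Psme1 and, as 2 overlapping matches, Erap1), against 8.56% of all 32851 windows in the table, and the gamma-activated site in Psmb8 alone among the 9, against 8.30% of windows. A match describes letters, not a bound site. The windows printed here are those of the genes whose probe sets had the highest bleomycin differences: B2m (chr2:122147437-122147736, plus strand), Psmb8 (chr17:34197945-34198244, plus strand) and Tap1 (chr17:34187306-34187605, plus strand). The Tap1 window overlaps that of Psmb9 by 275 bases on the opposite strand, with starts 226 bases apart. The sequence labelled Tap1 and Psmb9 is the Tap1 window on the Tap1 strand, and Psmb9 bases outside the overlap are not printed. Capitals mark the response element core in B2m (bases -139 to -131 from the start) and the gamma-activated site in Psmb8 (bases -97 to -89), and the Tap1 and Psmb9 windows held no match of either.
B2m: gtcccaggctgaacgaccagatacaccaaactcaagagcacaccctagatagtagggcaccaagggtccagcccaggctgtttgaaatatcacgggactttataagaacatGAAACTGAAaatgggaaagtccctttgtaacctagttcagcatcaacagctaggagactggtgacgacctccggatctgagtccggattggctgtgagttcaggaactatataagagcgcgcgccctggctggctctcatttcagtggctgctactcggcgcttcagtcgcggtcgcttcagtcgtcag
Psmb8: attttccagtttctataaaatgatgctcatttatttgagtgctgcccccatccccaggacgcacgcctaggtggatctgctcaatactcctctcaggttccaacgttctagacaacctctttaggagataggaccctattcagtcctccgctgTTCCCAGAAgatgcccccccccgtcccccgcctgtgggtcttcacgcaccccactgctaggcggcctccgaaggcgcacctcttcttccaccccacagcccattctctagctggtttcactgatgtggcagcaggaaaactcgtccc
Tap1 and Psmb9: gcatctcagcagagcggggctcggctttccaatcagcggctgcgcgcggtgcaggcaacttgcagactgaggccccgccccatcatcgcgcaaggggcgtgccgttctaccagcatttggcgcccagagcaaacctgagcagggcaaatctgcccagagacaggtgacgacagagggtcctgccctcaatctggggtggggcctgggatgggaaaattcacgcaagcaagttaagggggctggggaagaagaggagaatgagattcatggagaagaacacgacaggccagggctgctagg

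After bleomycin, B2m and the immunoproteasome subunits Psmb8 and Psmb9 were higher in AEC2 pools of both genotypes, while Psmb10, Psme1, Tap2, Tapbp and Erap1 did not pass the test. Across both genotypes, Psmb9 rose by 1.02 ± 0.17 (SE, log2), Psmb8 by 0.78 ± 0.16 and B2m by 0.56 ± 0.16. These came from a limma fit of all 9097 genes past the filter with genotype and treatment as additive factors, 1 residual degree of freedom and Benjamini-Hochberg adjustment (adjusted p = 0.00184, 0.00789 and 0.0400). Thus 3 of the 8 genes past the filter rose and 0 fell, where 7.18% of all genes rose and 2.53% fell. At an unadjusted p under 0.05, 4 of the 8 and 2176 of all genes passed. The median effect was 0.27 over the 8 genes and 0.04 over all genes, and by size the 3 ranked 179 (Psmb9), 308 (Psmb8) and 666 (B2m) of 9097. The limma error is built from differences between the genotypes' responses, not from replicate pools. The B2m call ended when each gene was taken at its brightest probe set (adjusted p = 0.105), with no filter on dim genes (0.103) or with arrays centred on their medians (0.0795), and the Psmb8 call ended with no filter (0.0586), all by limma. Over the 6 gene-level alternatives that keep all arrays, the adjusted p ran from 0.000229 to 0.105 for B2m, from 0.000329 to 0.0586 for Psmb8 and from 0.000560 to 0.0440 for Psmb9. All 3 calls ended when a day 4 array was left out, with limma adjusted p of 0.261 to 0.583 without the Tlr4-/- one and 0.154 to 0.311 without the WT one, and the B2m call also without the untreated WT array (0.0935).

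B2m, the light chain, was read by 2 bright probe sets. The first (1449289_a_at) read 13.35 and 12.82 in the Tlr4-/- day 4 and untreated arrays and 13.39 and 12.78 in the WT day 4 and untreated arrays. The second (1452428_a_at) read 13.11 and 12.59 in Tlr4-/- and 13.08 and 12.52 in WT. Both day 4 arrays thus stood above both untreated arrays on each probe set, and the genotypes lay within 0.07 of each other at either time. The day 4 difference averaged over the probe sets was 0.53 in Tlr4-/- and 0.59 in WT, each beyond the spread of 0.23 (SD, log2) that limma estimated for a difference between 2 arrays. Fitted on their own among 17479 probe sets past the filter, neither B2m probe set passed (limma adjusted p = 0.0991 and 0.114).

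Psmb8 (LMP7), the chymotrypsin-like subunit of the immunoproteasome, had 1 bright and 1 dim probe set. The bright one (1422962_a_at) read 10.59 and 9.49 in the Tlr4-/- day 4 and untreated arrays and 10.23 and 9.17 in the WT arrays. Day 4 again stood above untreated in both genotypes, by 2.15-fold in Tlr4-/- and 2.09-fold in WT, and the Tlr4-/- array was the higher one at both times. Its dim probe set read 5.69 and 5.01 in Tlr4-/- and 5.54 and 5.25 in WT. Averaging the 2 gave gene-level differences of 0.89 in Tlr4-/- and 0.68 in WT, while the bright probe set fitted alone rose by 1.08 ± 0.18 (limma adjusted p = 0.00847).

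Psmb9 (LMP2), whose only probe set is 1450696_at, read 10.21 and 9.40 in the Tlr4-/- day 4 and untreated arrays and 10.30 and 9.08 in the WT arrays. The day 4 arrays lay above the untreated ones, by 1.76-fold in Tlr4-/- and 2.33-fold in WT, and the untreated WT array was the lowest of the 4. With Psmb8 it was 1 of 2 probe sets of these genes that rose in the probe-set fit (1.02 ± 0.19, limma adjusted p = 0.0151), where 3.78% of all probe sets rose. Psmb10 (MECL-1), the third inducible subunit, read 9.95 and 9.74 in Tlr4-/- and 9.81 and 9.69 in WT. Its differences of 0.21 in Tlr4-/- and 0.12 in WT were below that 0.23, and it did not pass the test (0.16 ± 0.16, limma adjusted p = 0.585).

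**Figure D1:**
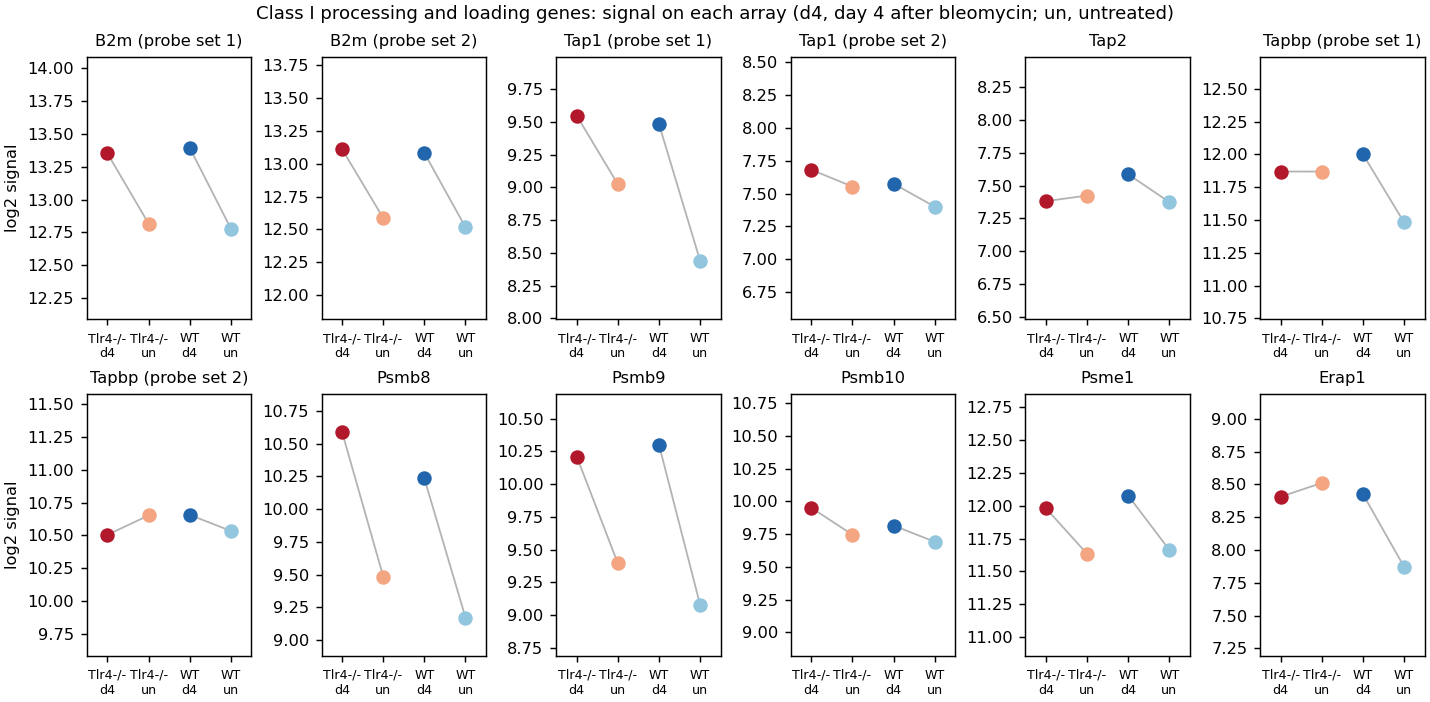
Signal (log2) of the 12 probe sets past the filter on each of the 4 arrays, 1 point per array, with grey lines joining the arrays of a genotype; every panel spans the same number of log2 units, and levels are not comparable between panels. Both day 4 points lie above both untreated points for B2m, Tap1 (both probe sets), Psmb8, Psmb9, Psmb10 and Psme1. For Psmb10 (0.21 in Tlr4-/- and 0.12 in WT) and the dimmer Tap1 probe set (0.13 and 0.18) the day 4 differences are within the spread between arrays. How many of all probe sets share this order was not counted.

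The constitutive catalytic subunits were also higher at day 4. Psmb5, which Psmb8 replaces, was higher by 0.67 in Tlr4-/- and 0.78 in WT, where the bright Psmb8 probe set was higher by 1.10 and 1.06. Psmb6, which Psmb9 replaces, was higher by 0.61 in Tlr4-/- and 0.63 in WT, against 0.81 and 1.22 for Psmb9. In both of these pairs the inducible subunit had the larger difference in both genotypes on these probe sets, although with both Psmb8 probe sets averaged its WT difference of 0.68 was below that of Psmb5. The third pair ran the other way: Psmb7, which Psmb10 replaces, was higher by 0.83 in Tlr4-/- and 0.34 in WT, against 0.21 and 0.12 for Psmb10. Psmb10 minus Psmb7 was -0.63 in Tlr4-/- and, within that 0.32, -0.22 in WT. Across both genotypes Psmb5 (0.73), Psmb6 (0.62) and Psmb7 (0.59) rose (limma adjusted p = 0.0112, 0.0252 and 0.0473).

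**Figure D2:**
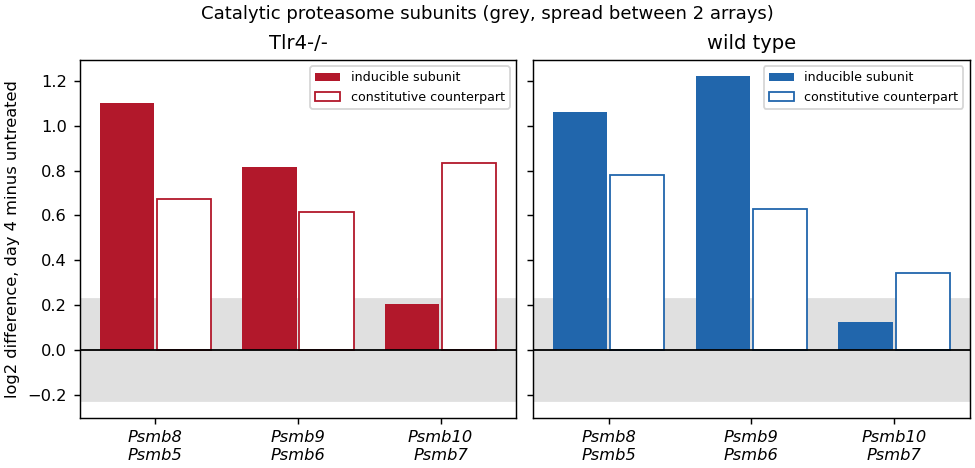
Log2 difference between the day 4 and untreated arrays for each inducible catalytic subunit (filled bars; Psmb8 by its bright probe set) and its constitutive counterpart (open bars), in Tlr4-/- (left panel) and WT (right panel), with the spread between 2 arrays (1 SD, 0.23) in grey. Filled bars exceed open bars for Psmb8 and Psmb9 in both genotypes and fall short for Psmb10. The gaps of Psmb8 in WT, Psmb9 in Tlr4-/- and Psmb10 in WT are smaller than 0.32, the spread of a difference between the genotypes' responses. No spread was estimated for a gap between different genes.

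Psme1 encodes the alpha subunit of the PA28 regulator, which opens the proteasome's gate. It read 11.98 and 11.63 in the Tlr4-/- day 4 and untreated arrays and 12.08 and 11.66 in the WT arrays. The genotypes were close at each time, and day 4 was 1.27-fold higher in Tlr4-/- and 1.33-fold higher in WT. Both differences were larger than the spread between arrays, but the effect of 0.38 ± 0.16 did not pass the test (limma adjusted p = 0.153), and it passed only with a mean-dependent prior (adjusted p = 0.0307). Psme3, which forms the related PA28 gamma regulator of the nucleus, had an effect of 0.16 averaged over 3 probe sets, 1 of them dim, and of 0.71 at its brightest probe set, and passed in neither (limma adjusted p = 0.594 and 0.0667).

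Of the TAP transporter, the bright Tap1 probe set (1416016_at) read 9.55 and 9.02 in the Tlr4-/- day 4 and untreated arrays and 9.48 and 8.44 in the WT arrays. Both day 4 arrays were the high ones and the untreated WT array the lowest: day 4 was 1.44-fold higher in Tlr4-/- and 2.06-fold higher in WT, while the untreated Tlr4-/- array was above the untreated WT array by 0.58 (log2). Its effect in the probe-set fit, 0.78 ± 0.20, did not pass (limma adjusted p = 0.0507). The other Tap1 probe set past the filter read 7.68 and 7.55 in Tlr4-/- and 7.57 and 7.40 in WT, with differences of 0.13 and 0.18. The remaining 2 were dim and nearly flat, between 4.43 and 4.61 and between 3.46 and 3.53. The size of the Tap1 difference therefore depended on the probe set: over the 2 past the filter, an average chosen after the values were seen, it was 0.33 in Tlr4-/- and 0.61 in WT, and over all 4 it was 0.16 and 0.36. Tap2, the partner of Tap1 in the transporter, read 7.38 and 7.42 in Tlr4-/- and 7.59 and 7.37 in WT, with no pair of matched arrays further apart than 0.21 and an effect of 0.08 (limma adjusted p = 0.809).

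Tapbp, the gene of tapasin, had 2 bright probe sets. The first (1421812_at) read 11.87 on both Tlr4-/- arrays, day 4 and untreated, and 12.00 and 11.48 in the WT day 4 and untreated arrays. Here too the untreated WT array was the low one: day 4 was 1.43-fold higher in WT and level in Tlr4-/-, whose untreated array stood 1.31-fold above that of WT. The second probe set (1450378_at) read 10.51 and 10.65 in Tlr4-/- and 10.66 and 10.53 in WT, differences of -0.15 and 0.12 that are within the spread. Averaged over both, Tapbp had an effect of 0.12 and did not pass (limma adjusted p = 0.712).

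Erap1, the peptidase that trims peptides to the length class I molecules hold, also had its lowest signal in the untreated WT array on its bright probe set (1416942_at), at 8.41 and 8.51 in the Tlr4-/- day 4 and untreated arrays and 8.43 and 7.87 in the WT arrays. Both Tlr4-/- arrays and the WT day 4 array lay close together and the untreated WT array was lower, so day 4 was 1.47-fold higher in WT and lower by 0.11 in Tlr4-/-. The untreated Tlr4-/- array was 1.56-fold above the untreated WT array. The second probe set, below the filter, read 7.11 and 7.15 in Tlr4-/- and 7.15 and 7.04 in WT. Averaged, Erap1 had an effect of 0.13 (limma adjusted p = 0.703).

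Taken genotype by genotype, with 1 array on each side and no test, few of the differences reached 2-fold. In Tlr4-/-, 0 of 8 genes reached it upwards (2.45% of all genes did) and 0 downwards (0.890%). In WT, 1 of 8 reached it upwards, Psmb9 (2.55% of all genes did), and 0 downwards (0.308%). By probe set, 1 of 12 (Psmb8) was at least 2-fold higher in Tlr4-/-, against 2.60% of all probe sets, and 3 of 12 (Tap1, Psmb8 and Psmb9) in WT, against 2.53%. Above 0 were 9 of the 12 probe sets in Tlr4-/- (range -0.15 to 1.10), against 50.1% of all, and 12 of 12 in WT (range 0.12 to 1.22), against 59.2% of all. At the gene level 4 of 8 were above that spread of 0.23 in Tlr4-/- (26.7% of all genes) and 6 of 8 in WT (30.4%).

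**Figure D3:**
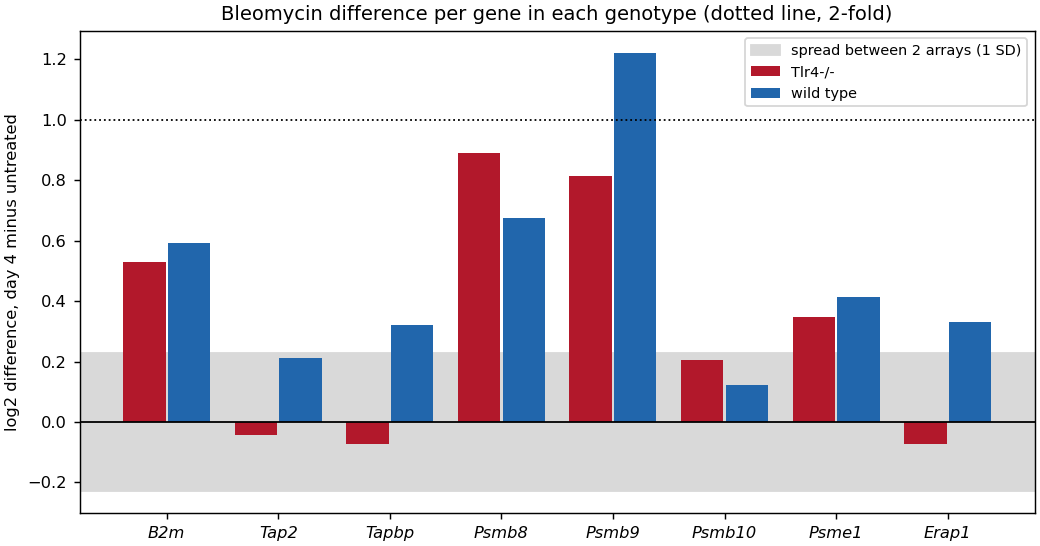
Log2 difference between the day 4 and untreated arrays for each of the 8 genes past the filter, in Tlr4-/- (red bars) and WT (blue bars), with the spread between 2 arrays (1 SD, 0.23) in grey and a dotted line at 2-fold. B2m, Psmb8, Psmb9 and Psme1 exceed the spread in both genotypes, Tapbp and Erap1 exceed it in WT, a difference between genotypes that has no test, and Psmb9 in WT passes 2-fold.

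The difference between the responses (Tlr4-/- minus WT) has no test, since the 4 arrays leave no residual once it is in the model. It was below 0 for 6 of the 8 genes, against 59.2% of all genes, with a median of -0.16 over the 8 and -0.07 over all genes. It passed the spread of 0.32 for such a difference in 3 of 8, all below 0: Psmb9 (-0.41), Erap1 (-0.41) and Tapbp (-0.39), against 20.8% of all genes. A further 12.6% of all genes passed it above 0. That spread was itself estimated from the response differences of all genes, so passing it is not a test. By bright probe set the difference was -0.66 for Erap1 and -0.52 for Tap1 and the first Tapbp probe set, with -0.27 for the second. For the bright Psmb8 probe set it was 0.04 and for the 2 B2m probe sets -0.08 and -0.04, so these probe sets had nearly equal responses in the pools of both genotypes. With both Psmb8 probe sets averaged, the difference was 0.21, within that 0.32.

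The genotypes stood further apart in the untreated arrays than at day 4 for Tap1, Tapbp, Erap1 and Psmb9. The second Tapbp probe set was an exception, at 0.12 untreated and -0.15 at day 4. Untreated, 11 of the 12 probe sets were higher in Tlr4-/- than in WT, with differences of -0.03 to 0.64, but 62.0% of all probe sets were higher there too. The largest were Erap1 (0.64), Tap1 (0.58), Tapbp (0.39), Psmb9 (0.32) and Psmb8 (0.31). At day 4, 5 of the 12 were higher in Tlr4-/-, with differences of -0.20 to 0.35, against 51.8% of all probe sets, and Psmb8 alone (0.35) lay beyond 0.23. At the gene level, 3 of 8 were higher by more than 0.23 when untreated (29.3% of all genes) and 1 of 8 at day 4 (17.3%). None of the 8 genes was 2-fold higher or lower in Tlr4-/- at either time: among all genes 0.780% were higher and 0.341% lower when untreated, and 0.0440% were higher and 0.0550% lower at day 4. The limma test of the genotype effect across both treatments called 0 of the 8 genes, with adjusted p between 0.821 and 0.982 and 0 of 8 at an unadjusted p under 0.05. Of all genes 0.00% rose and 0.00% fell in it, with 822 at an unadjusted p under 0.05. The untreated WT pool enters both the WT bleomycin difference and the untreated genotype difference. The low signals of that 1 array for Tap1, Erap1 and the first Tapbp probe set therefore appear in both. Markers of other cells differed between the untreated pools too: linear signal summed over mesothelial markers was 313 in Tlr4-/- and 809 in WT, and over airway markers 14986 in Tlr4-/- and 24928 in WT. Leukocyte and macrophage sums were near each other there, at 3538 in Tlr4-/- and 3475 in WT, but single markers were not all so. Of the 13 past the filter, 4 were higher in Tlr4-/- by more than 0.23, with Ptprc at 0.72, and 2 were lower by more than 0.23. Lymphocyte markers below the filter also differed both ways: Cd3e (1.53) and Cd8a (1.54) were higher in Tlr4-/-, with Cd79a (-1.54) and Gzma (-1.46) lower. The part of these cells in the genotype differences was not tested.

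**Figure D4:**
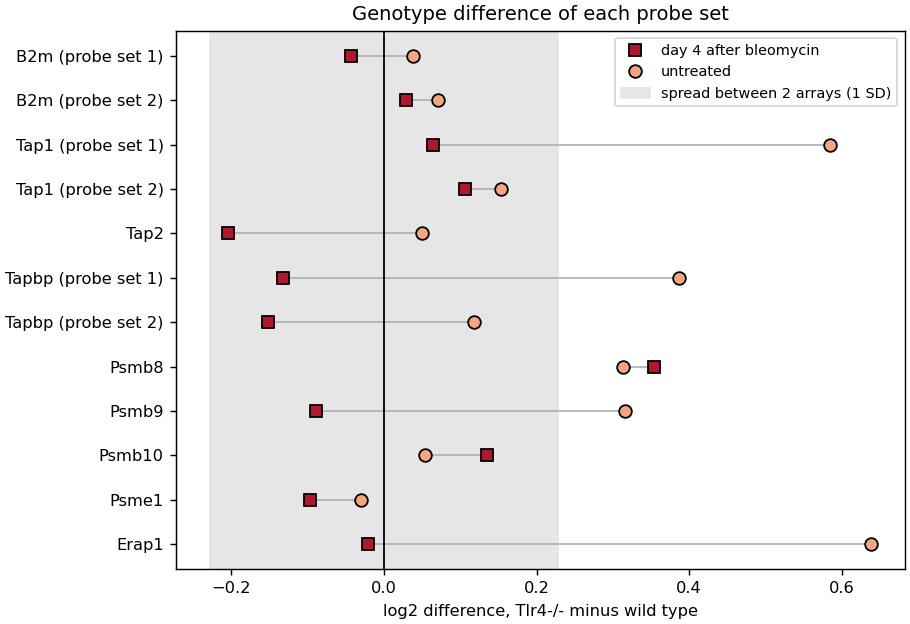
Log2 difference between Tlr4-/- and WT for each of the 12 probe sets past the filter, at day 4 after bleomycin (squares) and untreated (circles), joined by a line, with the spread between 2 arrays (1 SD, 0.23) in grey. Circles for Tap1 (probe set 1), Tapbp (probe set 1), Psmb9 and Erap1 lie to the right of the spread while their squares lie within it, and both symbols of Psmb8 lie to its right.

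Among class I heavy chains, 15 of 29 listed genes had a single-symbol probe set and 8 passed the filter. Of the 8, 2 rose and 0 fell, where 7.18% of all genes rose and 2.53% fell, and the median effect was 0.42. H2-Q5, a non-classical Qa-region chain, rose by 0.97 ± 0.16 and H2-M3, which binds formylated peptides, by 0.66 ± 0.18 (limma adjusted p = 0.00183 and 0.0370). The classical chains H2-K1 (0.47 ± 0.16, limma adjusted p = 0.0841) and H2-D1 (0.38 ± 0.16, adjusted p = 0.155) did not pass. All 4 H2-K1 and 7 of 9 H2-D1 probe sets are of the kind that can cross-hybridise, and heavy chains are near-identical copies, so these values are uncertain as to which chain they read. With each gene at its brightest probe set, H2-Q5 passed and H2-M3 did not (limma adjusted p = 0.121). The 3 H2-K1 probe sets past the filter were higher at day 4, by 0.33 to 0.62 in Tlr4-/- and 0.38 to 0.60 in WT. Of 7 H2-D1 probe sets past it, 6 were higher at day 4 in each genotype and 1 rose in the probe-set fit, with ranges of -0.10 to 1.24 in Tlr4-/- and -0.20 to 1.17 in WT.

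Of the 4 lists, which differ in size, that of the constitutive proteasome had the most calls. All 19 listed subunits, assembly chaperones and regulators past the filter had an effect above 0, against 5082 of all 9097 genes, with a median of 0.49. Of the 19, 0 fell, against 2.53% of all genes, and 8 rose, against 7.18%. Beside the 3 catalytic subunits these included the structural subunits Psmb3 (0.82), Psmb4 (0.74) and Psma4 (0.67) and the assembly chaperone Psmg2 (0.81), with limma adjusted p of 0.00542, 0.0103, 0.0190 and 0.00570. With each gene at its brightest probe set, none of the 8 passed (limma adjusted p between 0.0543 and 0.253), their effects staying above 0. For the alpha and beta subunits of the 20S core alone, 7 of 13 rose, with a median of 0.59, beside 0.27 over the 8 class I processing genes. Of 15 chaperones and peptidases of the loading pathway past the filter, 0 rose and 0 fell by limma, and the median effect was 0.12. At an unadjusted p under 0.05, 1 of the 15 and 2176 of all 9097 genes passed. The lectin chaperones Calr and Canx, which hold heavy chains as they fold, had effects of 0.26 and 0.27, the oxidoreductase Pdia3 of the loading complex -0.16, and Tapbpl, the tapasin-related peptide editor, 0.28 (limma adjusted p = 0.336, 0.354, 0.605 and 0.299). At the brightest probe set the effects were 0.13 for Calr, 0.15 for Canx, 0.015 for Pdia3 and 0.35 for Tapbpl.

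Of 21 regulators and interferon signalling genes past the filter, 4 rose and 0 fell, where 7.18% of all genes rose and 2.53% fell. Their median effect was 0.27. Nlrc5, the class I transactivator, read 8.19 and 7.06 in the Tlr4-/- day 4 and untreated arrays and 7.36 and 6.60 in the WT arrays. It was highest in the Tlr4-/- day 4 array and rose by 0.95 ± 0.16 (limma adjusted p = 0.00285). The interferon response factors Irf7 (0.83) and Irf9 (0.75) and the signal transducer Stat2 (0.69) rose as well (limma adjusted p = 0.00490, 0.0135 and 0.0184). With each gene at its brightest probe set, Irf7 was the 1 of these 4 that passed, and Nlrc5 fell below the filter. Irf1 (-0.06) and Rfx5, a subunit of the factor that recruits NLRC5 to class I promoters (0.02), did not pass (limma adjusted p = 0.876 and 0.969). Ifng, the gene of interferon gamma itself, was dim on every array, between 4.37 and 4.64, and without detection calls its absence cannot be stated. Leukocytes also express these regulators and heavy chains, and leukocyte markers rose at day 4 as given above. The part of leukocytes in these values was not tested.

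**Figure D5:**
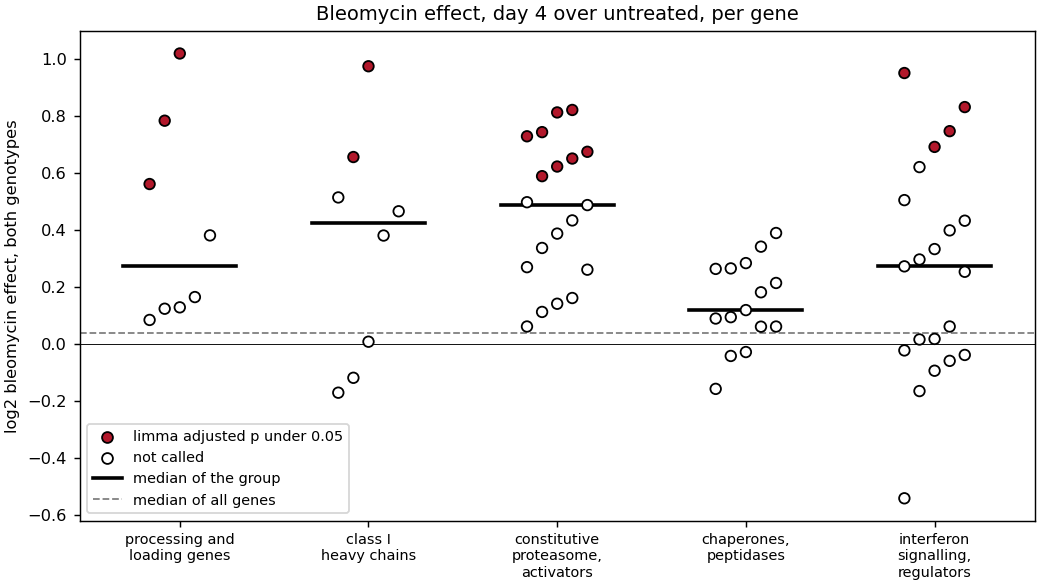
Bleomycin effect (log2, day 4 over untreated across both genotypes, from limma) of each gene past the filter in 5 groups, 1 point per gene, filled where the adjusted p was under 0.05; black bars are group medians and the dashed line is the median of all genes. Filled points number 3 of 8, 2 of 8, 8 of 19, 0 of 15 and 4 of 21 from left to right, and none is below 0.

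The mean profile of the 8 genes, each centred on its own mean, was 0.19 and -0.13 in the Tlr4-/- day 4 and untreated arrays and 0.21 and -0.27 in the WT arrays. The genes past the filter with the nearest centred profile by Euclidean distance over the 4 arrays were Rnf168 (0.025), Meaf6 (0.030), Ndufaf7 (0.037), Dnajc5 (0.038) and Vps35 (0.045). None of these 5 passed the limma test of the bleomycin effect (adjusted p between 0.116 and 0.159), and 4 arrays leave many genes with a like profile. The 8 genes themselves lay further from the mean profile, from 0.13 (Psme1) to 0.63 (Psmb9), so it is the pattern of none of them.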

How the data were processed

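Per the labels' protocols, RNA from flow-sorted AEC2 was amplified (Ovation Pico WT Amp V2) and biotin labelled (Encore Biotin Module). The deposited values are 1 log2 signal per probe set and array for 45101 probe sets; the log base was read from their range, while the authors' software and normalization are not stated there. The number of arrays, 4, limits precision. Single-symbol probe sets were averaged per gene, and genes whose mean exceeded the median of all genes (9097 of 18194) were kept. The bleomycin and genotype effects came from an additive limma model (version 3.58.1, R 4.3.3; lmFit, then eBayes without trend or robust options), with Benjamini-Hochberg adjusted p called under 0.05. A difference between the genotypes' responses counts as error there. The prior (11.4 degrees of freedom) gave the spread between 2 arrays of 0.23. Pairs of arrays were compared without a test, at 2-fold. The limma fit of the bleomycin effect was tested on simulated data. These held independent noise and no difference between the genotypes' responses, so that test cannot check the calls made here. The genes and lists were chosen with earlier results of these data known. Named genes were all 10 genes, set genes of each list and up to 4 further called ones by size, and the 5 nearest profiles. A planned comparison of protein sequences was not run here. Alternatives were the probe set of highest mean, leaving out _x_at and _s_at probe sets, single probe sets, no filter, quantile normalization, median centring, limma trend, a 1.5-fold threshold and leaving out each array.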

Additional observations from a re-analysis of the deposited data

Results flagged for a closer look

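For 3 of the 8 genes past the filter the bleomycin difference had opposite signs in the genotypes, as it did for 33.4% of all genes. Tap2 was lower by 0.04 in Tlr4-/- and higher by 0.21 in WT, so the responses differed by -0.25 (Tlr4-/- minus WT). Tapbp was lower by 0.07 in Tlr4-/- and higher by 0.32 in WT, a difference of -0.39. Erap1 was lower by 0.07 in Tlr4-/- and higher by 0.33 in WT, a difference of -0.41. The Tlr4-/- values of all 3 are within the spread between arrays of 0.23.

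For 5 of the 8 the genotype difference had opposite signs at the 2 times, as it did for 44.7% of all genes. These were B2m, Tap2, Tapbp, Psmb9 and Erap1, each lower in Tlr4-/- than in WT at day 4 and higher when untreated. The day 4 minus untreated change of that difference was -0.061 for B2m, -0.25 for Tap2, -0.39 for Tapbp, -0.41 for Psmb9 and -0.41 for Erap1, the same quantity as the difference between the responses. With 1 array per group, none of these differences was tested.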

How the results depend on the processing

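The bleomycin effect kept its direction in all 8 genes under the 6 gene-level alternatives that keep all arrays (5 for Tap2, below the filter by probe set of highest mean). The number of genes that rose, 3 of 8, was 1 with no filter (Psmb9), 2 by probe set of highest mean, by single probe sets and after median centring, and 4 with the limma trend. Leaving out 1 array at a time gave 0 to 3, with 0 without either day 4 array, 2 without WT untreated and 3 without Tlr4-/- untreated; these fits hold no second factor and leave a lone sample in 1 group, assumed to vary like the others. Over all genes, 653 rose and 230 fell, against 279 and 62 by probe set of highest mean, 319 and 48 with no filter, 378 and 106 after median centring, and 0 to 802 and 0 to 227 with 1 array left out. The day 4 arrays set the low ends: 0 rose and 0 fell without Tlr4-/- day 4, and 18 and 3 without WT day 4. With 1 array left out, the effect ran from -0.018 to 0.19 for Tap2, -0.0023 to 0.25 for Tapbp and -0.060 to 0.32 for Erap1. The genotype effect was called in 0 genes, and in 1 that fell with _x_at and _s_at probe sets left out. It turned sign with 1 array left out, running from -0.27 to 0.32 for B2m (and -0.0025 by probe set of highest mean), -0.18 to 0.029 for Tap2, -0.11 to 0.22 for Tapbp, -0.30 to 0.59 for Psmb8, -0.50 to 0.72 for Psmb9, -0.0082 to 0.20 for Psmb10 and -0.27 to 0.14 for Psme1. The number at least 2-fold higher at day 4 was 0 in Tlr4-/- and 1 in WT, against 1 and 3 by probe set of highest mean and by single probe sets, 1 and 2 with _x_at and _s_at probe sets left out, and 2 and 3 at 1.5-fold. Where no value or construction shows it, the cause was not tested. No paired analysis was possible because each group had 1 array. Dim probe sets, without detection calls, have folds of uncertain size.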
